A study of Mus musculus with 6 samples.

Results

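The genes described here are 52 members of the cell cycle and DNA replication machinery, taken by name from a deposited table of read counts for 54532 mouse genes. All 52 were found, and all 52 passed the filter on low counts. They were divided by role into 20 genes of the G1/S transition and of DNA replication and 32 genes of mitosis. The counts come from RNA sequencing of primary cortical astrocytes grown from pups. There were 3 knockout cultures, labelled GFAP-Cre::NEOf/f, a name that denotes a floxed Neo1 and a Cre recombinase under the Gfap promoter, which is active in astrocytes and also in neural progenitors, and 3 cultures from littermate controls, whose library names read Neoff, without GFAP. Neogenin, the product of Neo1, is a cell surface receptor that binds netrins and RGM proteins. The sources used here do not give the age of the pups, the number of animals per culture or the time in culture, and the title of the series concerns angiogenesis and phagocytosis. In the labels the libraries are numbered biological replicates, with nothing to say which libraries come from the same pup or litter, so p-values rest on a spread between samples that may be technical in part.

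A cell enters a new cycle when D-type and E-type cyclins with their kinases inactivate the retinoblastoma protein and release E2F transcription factors. E2F targets load the MCM helicase at replication origins and supply nucleotides for DNA synthesis. Later, B-MYB and FOXM1 switch on the genes of mitosis, whose products condense chromosomes, build the spindle, check its attachment and divide the cell. Astrocytes of newborn cortex still divide, and cultures made from them contain cycling cells. In bulk RNA, fewer cycling cells and less RNA of these genes in each cycling cell cannot be told apart.

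Total counts ran from 60819277 to 106081115 per library. Neo1 (ENSMUSG00000032340, GRCm38 chr9:58874687-59036441, minus strand) stood at 101, 106 and 105 CPM (read counts normalised to library size) in the knockout libraries, against 189, 189 and 198 CPM in the control libraries. The groups did not overlap, and on the log2 scale Neo1 fell by 0.89 (SE 0.05, edgeR adjusted p = 5.8e-11). Its RNA was thus at a fold of 0.540 and not absent; the count pools all exons, and the deleted exon is not named in the labels. Of 11 astrocyte markers 7 fell and 2 rose, and Gfap was at 428 to 435 CPM in knockout libraries against 924 to 966 CPM in control libraries. Slc1a2 and Aqp4 were the 2 that rose. Slc1a2 had a mean of 371 CPM in knockout and 133 CPM in control libraries, and Aqp4 of 879 and 605 CPM. The 10 microglial markers summed to 47.7 to 53.4 CPM in knockout libraries and 80.6 to 82.0 CPM in control libraries, with 8 lower and 1 higher. The 5 fibroblast and meningeal markers summed to 4629 to 5243 CPM and 2981 to 3171 CPM, all 5 higher, and the 5 neural progenitor markers to 838 to 862 CPM and 1221 to 1272 CPM, with 2 lower. Of the 4 endothelial markers Cdh5 rose, 2 were not called and Cldn5 did not pass the filter. Of the 7 oligodendrocyte lineage markers 3 fell and 2 rose, with Sox10 at most 0.109 CPM in knockout and 0.536 CPM in control libraries. Of the 5 neuronal markers 1 fell and 1 rose, with Rbfox3 at most 0.301 CPM in knockout and 0.379 CPM in control libraries. Cx3cr1, a defining microglial gene, was at most 0.301 CPM in knockout and 1.34 CPM in control libraries. Marker RNA of several cell types thus moved with the genotype beside the results below, and its part in them was not tested. On the first principal component, with 49.3% of the variance, knockout replicate 2 lay at 67.0, and knockout replicates 1 and 3 at 30.0 and 30.5. The controls lay from −47.1 to −35.8. On the second, with 19.6% of the variance, knockout replicate 2 also lay away from the rest of its group.

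Most of the cell cycle genes were lower in the knockout cultures, by modest amounts. Of the 32 mitotic genes, 23 fell and 1 rose, and of the 20 G1/S and replication genes, 12 fell and 0 rose (quasi-likelihood test of edgeR, p adjusted over the whole table by Benjamini-Hochberg, threshold 0.05). Over the 18530 genes tested, 38.3% were called, 18.7% lower (3466 genes) and 19.6% higher (3627 genes). With scaling by total counts in place of TMM factors these were 4499 lower and 2921 higher. The count of 0 for G1/S and replication genes that rose was 1 under DESeq2 and limma-voom, and Ccne1 and Ccne2 were above zero at an unadjusted p of 0.041 and 0.020. The median log2 fold change was −0.32 for the mitotic genes and −0.19 for the G1/S and replication genes, beside −0.00 for all genes. The changes ran from −0.66 (Aurkb) to 0.57 (Cenpe) among mitotic genes and from −0.63 (Tk1) to 0.32 (Ccne2) among G1/S and replication genes. Every knockout library was below every control library for 24 mitotic and 13 G1/S and replication genes, where 24.5% of all genes tested did so. Whether the mitotic genes fell more than the replication genes was not tested.

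**Figure D1:**
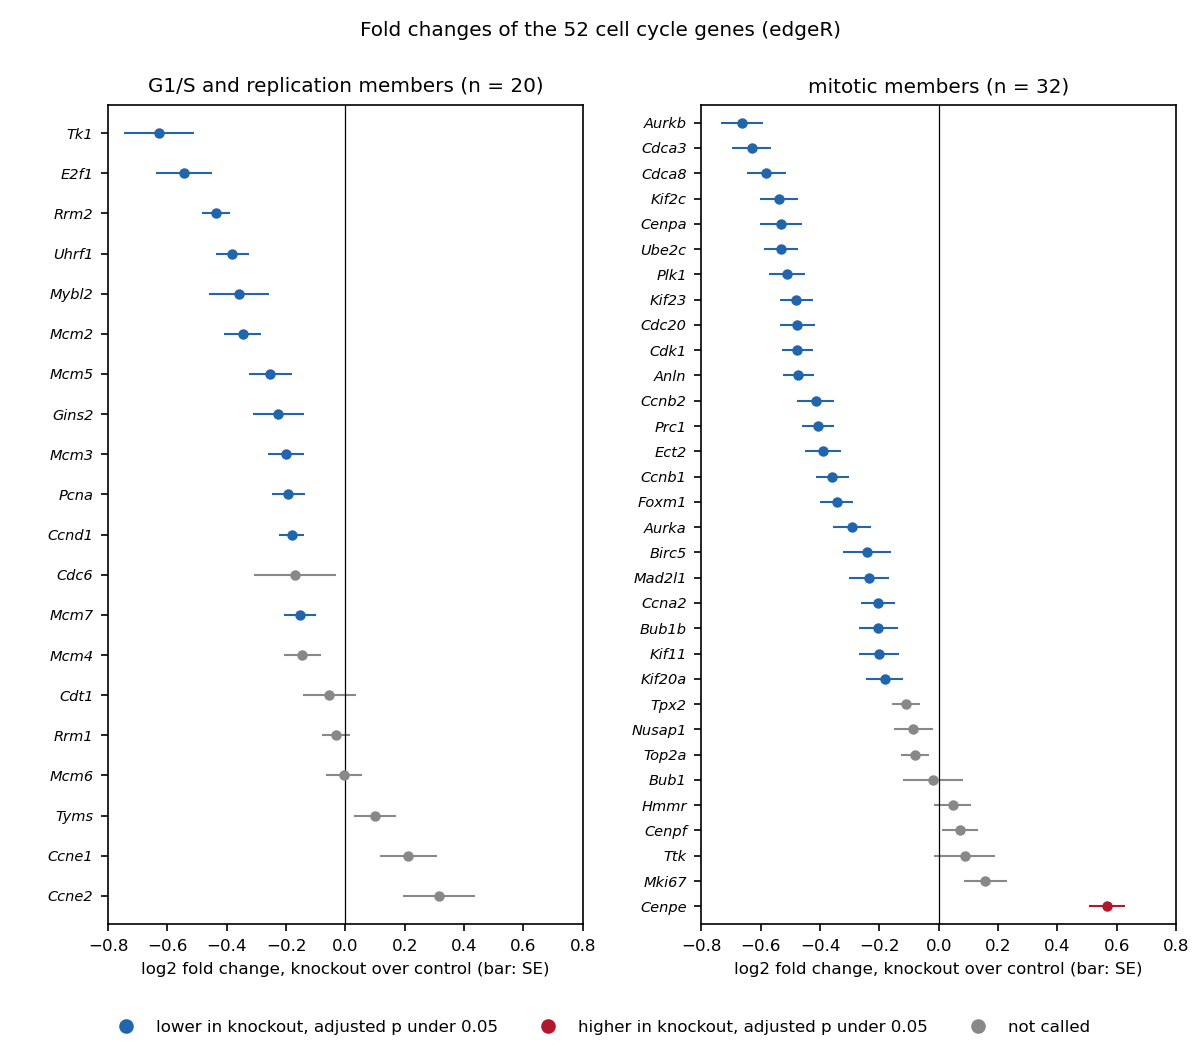
Log2 fold change of knockout over control (x axis) with its standard error for each of the 20 G1/S and replication genes and the 32 mitotic genes (y axis), coloured by the edgeR call. Most points lie left of zero, from Aurkb at −0.66, and Cenpe at 0.57 is the only gene called higher.

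In summaries over the 52 genes, the libraries of a group stood close together. Each library's level was set against the control mean of that gene, and the median over the 32 mitotic genes was −0.30, −0.31 and −0.31 on the log2 scale in knockout replicates 1, 2 and 3, against −0.02, −0.01 and 0.02 in control replicates 1, 2 and 3. Over the 20 G1/S and replication genes it was −0.184, −0.186 and −0.205 in the knockout libraries and −0.015, 0.012 and −0.027 in the control libraries. Summed over the 52 genes, the knockout libraries held 3393 ± 27.2 CPM and the control libraries 3942 ± 51.2 CPM (SD, n = 3 each), a ratio of 0.861. The knockout libraries thus lay close to each other and below all control libraries in these summaries, knockout replicate 2 included. Scaling to the control mean itself places the control medians near zero. Ccnd1 alone, with means of 908 CPM in knockout and 1030 CPM in control libraries, weighs heavily in the sums.

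Of the 3 genes of entry into the cycle, Ccnd1 fell and both E-type cyclins were not called. Ccnd1 encodes cyclin D1, which partners CDK4 and CDK6 in response to growth signals, and had the highest level per kilobase of transcript of the 52 genes. It was at 921, 862 and 943 CPM in the knockout libraries, against 1001, 1026 and 1062 CPM in the control libraries, without overlap. It fell by 0.18 on the log2 scale (SE 0.04, edgeR adjusted p = 0.0026). LTO1, an opposite-strand gene, overlaps 23.4% of the exon sequence of Ccnd1, and the sources used here do not say whether reads were counted by strand. The E-type cyclins activate CDK2 at the start of S phase, and their fold changes were above zero. Ccne1 was at 18.4, 15.01 and 15.4 CPM in knockout libraries and 13.5, 14.1 and 14.6 CPM in control libraries (log2 fold change 0.21, SE 0.10, adjusted p = 0.093, edgeR). Without knockout replicate 2 it was called, at 0.27 (adjusted p = 0.035, edgeR). Ccne2 was at 10.9, 11.6 and 9.70 CPM in knockout libraries and 7.61, 10.1 and 8.17 CPM in control libraries (0.32, SE 0.12, adjusted p = 0.051, edgeR). The groups overlap for Ccne2 because of control replicate 2, without which the log2 fold change was 0.43 (adjusted p = 0.017, edgeR). It was also called without knockout replicate 3 (0.38, adjusted p = 0.039, edgeR). Exons of Ints8 on the other strand cover 17.4% of those of Ccne2.

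All 3 transcription factors of the set fell, E2f1 and Mybl2 among the G1/S genes and Foxm1 among the mitotic genes. E2f1, the activator of S-phase genes, was at 16.7, 13.6 and 14.9 CPM in the knockout libraries and 22.3, 23.6 and 19.96 CPM in the control libraries. It fell by 0.54 on the log2 scale (SE 0.09, edgeR adjusted p = 1.6e-04), the most of the 3. Mybl2, encoding B-MYB, was at 9.09, 9.59 and 8.95 CPM against 12.3, 11.8 and 11.4 CPM in controls (−0.36, SE 0.10, adjusted p = 0.0083, edgeR). Foxm1, which drives G2 and mitotic genes, was at 47.4, 46.0 and 49.2 CPM against 58.2, 61.8 and 60.9 CPM in controls (−0.34, SE 0.06, adjusted p = 8.6e-05, edgeR). The groups did not overlap for any of these factors.

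Origin licensing and the replicative helicase changed in part. Of 9 genes, 5 fell and the others were not called, and all 9 fold changes were at or below zero. Mcm2, a helicase subunit, was at 44.4, 41.0 and 45.3 CPM in the knockout libraries and 55.99, 57.7 and 52.6 CPM in the control libraries (log2 fold change −0.35, SE 0.06, adjusted p = 2.0e-04, edgeR). Mcm5 was at 34.1, 29.0 and 34.7 CPM against 38.3, 40.1 and 38.2 CPM in controls (−0.25, SE 0.07, adjusted p = 0.0098, edgeR). Mcm3, Mcm7 and Gins2, a subunit of the GINS complex that completes the helicase, fell by 0.20, 0.15 and 0.23 on the log2 scale. The call was lost in 2 of 16 other settings for Mcm3, in 6 for Mcm7 and in 8 for Gins2. For Mcm3 these were without knockout replicate 3 or control replicate 2, and for Mcm7 and Gins2 they included the replicate block and 4 of the 6 left-out libraries. Gins2 shares 67.3% of its exon sequence with Gse1 on the opposite strand, so its count is uncertain. Mcm6 was at 65.3 ± 5.76 CPM in knockout and 65.6 ± 1.51 CPM in control cultures, and Mcm4 was not called at −0.15 (adjusted p = 0.073, edgeR). The loading factors Cdc6 and Cdt1 were at 6.70 ± 0.578 and 16.8 ± 0.660 CPM in knockout cultures, against 7.55 ± 1.35 and 17.5 ± 1.72 CPM in control cultures (SD, n = 3), with overlapping groups. Across the 6 MCM subunits the fold changes ran from −0.35 (Mcm2) to −0.00 (Mcm6), and differences between subunits were not tested.

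At the fork, Pcna and Uhrf1 both fell. Pcna encodes the sliding clamp of DNA polymerases, and was at 108, 124 and 109 CPM in the knockout libraries against 135, 127 and 127 CPM in the control libraries (log2 fold change −0.19, SE 0.06, adjusted p = 0.010, edgeR). Knockout replicate 2 was the highest knockout library and lay just below the lowest controls. Annotated pseudogene Pcna-ps2 matches 51.4% of the Pcna transcript at 99.2% identity. The call was lost without knockout replicate 1 (−0.16), knockout replicate 3 (−0.17) or control replicate 1 (−0.17). Uhrf1, which directs maintenance of DNA methylation after replication, was at 41.7, 41.5 and 41.2 CPM against 52.9, 54.3 and 54.8 CPM in controls (−0.38, SE 0.06, adjusted p = 2.6e-05, edgeR), with little spread within either group.

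Of the 4 genes of nucleotide synthesis, Rrm2 and Tk1 fell. Ribonucleotide reductase, which makes deoxyribonucleotides, is built from a large subunit encoded by Rrm1 and a small subunit encoded by Rrm2 whose protein is known to be confined to S phase. Rrm2 (ENSMUSG00000020649, chr12:24708241-24714146, plus strand) was at 131, 140.0 and 137 CPM in the knockout libraries and 179, 190.1 and 184 CPM in the control libraries (log2 fold change −0.44, SE 0.05, adjusted p = 7.3e-07, edgeR). Rrm1 was at 139, 152 and 145 CPM in the knockout libraries and 149, 148 and 148 CPM in the control libraries, with overlapping groups (log2 −0.03, SE 0.05, edgeR adjusted p = 0.63). Tk1, thymidine kinase, was at 15.8, 11.2 and 16.2 CPM against 22.2, 20.97 and 23.6 CPM in controls (−0.63, SE 0.12, adjusted p = 4.6e-04, edgeR). Tyms, thymidylate synthase, was not called, at 24.5 ± 0.940 CPM in knockout and 22.8 ± 0.263 CPM in control cultures (adjusted p = 0.29, edgeR). The salvage enzyme gene Tk1 therefore had the lowest fold change of the 20, while the de novo enzyme gene Tyms lay above zero without passing the test.

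Among mitotic genes, those of entry into mitosis and exit from it fell without exception. All 7, of CDK1, its cyclins, the anaphase-promoting complex and Cdca3, were called lower. Cdk1 (ENSMUSG00000019942, chr10:69335146-69352938, minus strand), the mitotic kinase, was at 66.5, 72.0 and 66.6 CPM in the knockout libraries and 94.2, 96.4 and 94.7 CPM in the control libraries (log2 fold change −0.48, SE 0.05, adjusted p = 9.1e-07, edgeR). Its cyclin partners had smaller changes: Ccna2 fell by 0.21, Ccnb1 fell by 0.36 and Ccnb2 fell by 0.41 on the log2 scale, and the call of Ccna2 was lost without knockout replicate 1 (−0.17). Annotated pseudogenes match 51.7% of the Ccnb1 transcript at 99.2% identity, and the sources used here do not say how reads that fit both were counted. Cdca3, which triggers degradation of the WEE1 inhibitor of CDK1, was at 29.7, 28.6 and 26.8 CPM against 43.9, 46.0 and 41.8 CPM in controls (−0.63, SE 0.07, adjusted p = 5.9e-07, edgeR). Ube2c, the ubiquitin-conjugating enzyme of the anaphase-promoting complex, was at 51.3, 48.6 and 54.5 CPM against 74.0, 76.9 and 72.2 CPM in controls (−0.53, SE 0.06, adjusted p = 8.5e-07, edgeR), and 22.8% of its exon sequence overlaps Tnnc2 on the other strand. Cdc20, the activator of that complex, fell by 0.48 on the log2 scale.

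The mitotic kinases and the chromosomal passenger complex also fell in all 5 genes measured. Aurkb, the kinase of the complex, was at 17.5, 18.2 and 18.7 CPM in the knockout libraries and 29.6, 28.3 and 28.1 CPM in the control libraries. It fell by 0.66 on the log2 scale (SE 0.07, edgeR adjusted p = 8.1e-07), to a fold of 0.632, the lowest of the 52 genes. Cdca8, which encodes the borealin subunit, was at 27.98, 30.2 and 31.0 CPM against 45.1, 46.4 and 41.8 CPM in controls (−0.58, SE 0.07, adjusted p = 1.8e-06, edgeR). Birc5, survivin, in the same complex, fell by 0.24, and its call was lost without knockout replicate 1 or 3 and without control replicate 1 or 2. Plk1 and Aurka, kinases of centrosomes and spindle poles, fell by 0.51 and 0.29 on the log2 scale. The groups did not overlap for any of the 5.

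**Figure D2:**
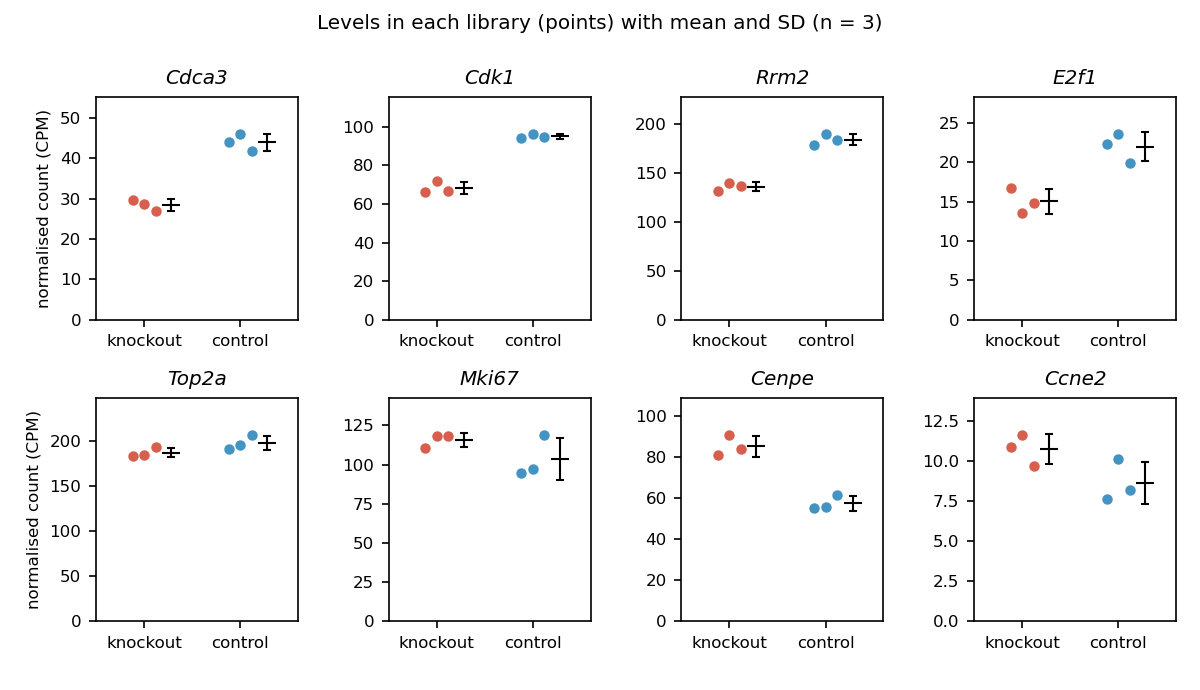
Normalised counts (CPM, y axis) of 8 of the genes in each knockout and control library, with the mean and SD of each group (n = 3) to the right of its points. Cdca3, Cdk1, Rrm2 and E2f1 are lower in all 3 knockout libraries than in any control library, Cenpe is higher in all 3, and the groups overlap for Top2a, Mki67 and Ccne2.

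All 5 genes of cytokinesis fell. Kif23, a kinesin of the central spindle, was at 43.8, 48.3 and 45.5 CPM in the knockout libraries and 63.6, 62.9 and 65.2 CPM in the control libraries (log2 fold change −0.48, SE 0.06, adjusted p = 2.5e-06, edgeR). Anln, the scaffold of the contractile ring, was at 73.4, 77.6 and 72.0 CPM against 99.6, 101 and 108 CPM in controls (−0.47, SE 0.05, adjusted p = 1.3e-06, edgeR). The bundling protein gene Prc1 and the RhoA activator gene Ect2 fell by 0.41 and 0.39, and the kinesin gene Kif20a by 0.18. The last overlaps Cdc23 on the other strand over 29.3% of its exons, and its call was lost without knockout replicate 1 or 3 and without control replicate 2 or 3.

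Spindle, checkpoint and kinetochore genes were mixed. Of the 5 spindle genes, Kif2c and Kif11 fell. Kif2c, a microtubule-depolymerising kinesin, was at 27.0, 26.6 and 26.1 CPM in the knockout libraries and 39.7, 39.4 and 36.8 CPM in the control libraries (log2 fold change −0.54, SE 0.06, adjusted p = 2.6e-06, edgeR). Kif11, the motor that separates spindle poles, was at 36.4, 33.0 and 34.9 CPM against 37.6, 39.7 and 42.6 CPM in controls (−0.20, SE 0.07, adjusted p = 0.024, edgeR). Its call was lost without knockout replicate 2 (−0.17), knockout replicate 3 (−0.20), control replicate 2 (−0.21) or control replicate 3 (−0.155). Tpx2, Nusap1 and Hmmr, which organise spindle microtubules, were not called, with log2 fold changes of −0.11, −0.09 and 0.05.

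Of the 4 checkpoint genes, which hold anaphase until chromosomes attach, Bub1b and Mad2l1 fell. Bub1b was at 28.6, 31.4 and 28.8 CPM in the knockout libraries and 33.0, 33.7 and 35.5 CPM in the control libraries (log2 fold change −0.20, SE 0.07, adjusted p = 0.022, edgeR). Mad2l1 was at 25.6, 26.9 and 28.03 CPM against 29.8, 32.4 and 32.4 CPM in controls (−0.23, SE 0.07, adjusted p = 0.011, edgeR). The call of Bub1b was lost without knockout replicate 1 (−0.18), knockout replicate 3 (−0.185) or control replicate 3 (−0.18), and that of Mad2l1 without knockout replicate 1 (−0.20). Bub1 and Ttk overlapped between groups, with log2 fold changes of −0.02 and 0.09.

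The 3 centromere and kinetochore genes went in different directions. Cenpa, the centromeric histone H3 variant, was at 28.8, 30.6 and 28.1 CPM in the knockout libraries and 45.6, 42.8 and 38.3 CPM in the control libraries (log2 fold change −0.53, SE 0.07, adjusted p = 1.2e-05, edgeR). Cenpe (ENSMUSG00000045328, chr3:135212537-135273611, plus strand), a kinesin that carries chromosomes to the spindle equator, was at 80.7, 90.6 and 83.7 CPM against 54.9, 55.6 and 61.5 CPM in controls. It was the only gene of the 52 to rise, by 0.57 on the log2 scale (SE 0.06, adjusted p = 7.9e-07, edgeR), a fold of 1.48. Cenpf, a large kinetochore protein, was at 53.8 ± 1.79 CPM in knockout and 51.2 ± 3.54 CPM in control cultures and was not called.

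The standard proliferation markers Mki67, which coats mitotic chromosomes, and Top2a, which untangles them, were not called. Mki67 was at 110.3, 118 and 118 CPM in the knockout libraries and 94.4, 97.4 and 119 CPM in the control libraries (log2 fold change 0.16, SE 0.07, adjusted p = 0.11, edgeR). Control replicate 3 alone made the groups overlap, and without it Mki67 was called higher, at 0.27 (adjusted p = 6.9e-04, edgeR). Top2a was at 183, 185 and 193 CPM against 191, 195 and 207 CPM in controls (−0.08, SE 0.05, adjusted p = 0.19, edgeR), with overlapping groups. Scaled by total counts it was called lower, at −0.145 (adjusted p = 0.017, edgeR).

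The fold changes of the members moved with the length and base composition of their transcripts, as did those of other genes. Across 15071 protein-coding genes, the median log2 fold change was 0.27 for transcripts of up to 40% GC and −0.27 for those above 60% GC. It was −0.12 for transcripts of up to 1000 bases and 0.23 for those above 8000 bases. Over the 32 mitotic genes, Spearman's rho between fold change and transcript length was 0.63, and with GC content −0.62. Over the 20 G1/S and replication genes, these were 0.03 and −0.51. Each is a description across genes of the same 6 libraries, and genes are not independent replicates. The 9 mitotic genes not called lower had a median transcript of 4365 bases and 43.3% GC, against 2842 bases and 49.3% GC for the 23 that fell. Cenpe, Mki67 and Cenpf have transcripts of 7910, 10061 and 11130 bases. Mad2l1, a mitotic gene that fell, also has a long transcript, of 7557 bases and 40.1% GC.

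A fit with per-library offsets for GC content and length, added after the data were seen, called 29 of 32 mitotic genes lower and 1 higher, and 11 of 20 G1/S and replication genes lower and 1 higher. Over the 18514 genes tested in that fit, 3698 were called lower and 3008 higher, with a median log2 fold change of −0.02. The medians of the mitotic and of the G1/S and replication genes were then −0.34 and −0.20. Top2a (−0.32, adjusted p = 2.8e-06), Cenpf (−0.28, adjusted p = 1.3e-04) and Hmmr (−0.22, adjusted p = 0.0057) were called lower in that edgeR fit, as were Bub1, Nusap1 and Tpx2. Mki67 stood at −0.05 (adjusted p = 0.43), and Ccne2 at −0.02 (adjusted p = 0.91). Cenpe was still called higher, at 0.26 (adjusted p = 1.6e-04), and Ccne1 was the G1/S gene called higher, at 0.28 (adjusted p = 0.021). Among the G1/S and replication genes, Mcm4 (−0.28, adjusted p = 5.4e-04) and Rrm1 (−0.22, adjusted p = 2.2e-04) were called lower in it. Mybl2, Mcm7 and Gins2 were no longer called in it, with Mybl2 at −0.22 (adjusted p = 0.10). Among genes called lower in both fits, the offsets moved Mad2l1 to −0.61 (adjusted p = 1.3e-06), Kif11 to −0.47, Ect2 to −0.69 and Pcna to −0.31, farther from zero. They moved E2f1 to −0.35 and Mcm2 to −0.23, nearer to zero.

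**Figure D3:**
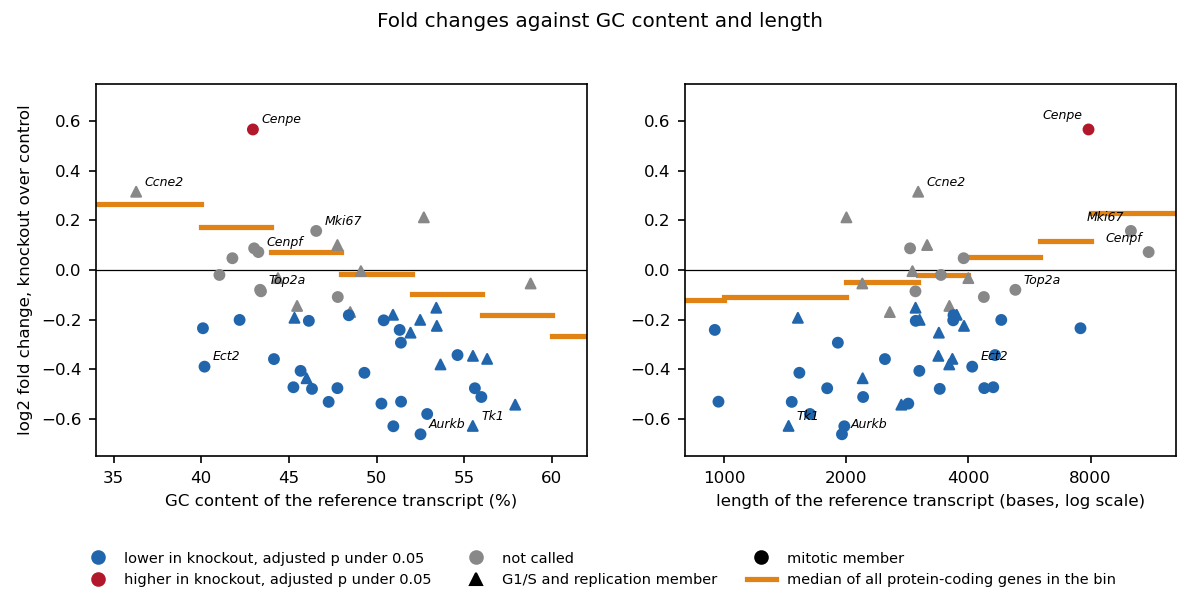
Log2 fold change of knockout over control (y axis) of each of the 52 genes against the GC content (left) and the length (right, log scale) of its reference transcript, with the median of all protein-coding genes in each bin as a horizontal bar. The bars run down from 0.27 at low GC content to −0.27 at high GC content and up from −0.12 to 0.23 with length.

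Promoter windows of the members were examined because so many of them moved together. RefSeq windows on GRCm38.p6, from 250 bases before the transcription start to 50 after it, were available for 43 of the 52 genes. Ccna2, Ccnd1, Ccne2, Aurkb, Tpx2, Kif20a, Mcm4, Gins2 and Foxm1 had none in the table. Motifs were searched on both strands. The cell cycle genes homology region (CHR) was taken as TTTGAA, as the same letters with a central CG (TTCGAA), or as the variant TTTAAA. The CCAAT box was taken as those letters, and the E2F site as TTTNNCGC with each N a C or G. No motif contains another, but E2F matches on opposite strands can overlap and were counted separately. A CHR was present in 25 of 27 mitotic windows and 6 of 16 G1/S and replication windows, against 28.8% of all 32851 windows. An E2F match was present in 1 of 27 and 6 of 16, against 2.26% of all windows. CCAAT was present in 22 of 27 and 9 of 16, against 37.4% of all windows. A CHR was found in 18 of the 19 mitotic windows of genes that fell and in 7 of the 8 of mitotic genes not called lower, a difference that was not tested. Among the G1/S and replication windows a CHR was found in 5 of the 10 of genes that fell and in 1 of the 6 of genes not called lower, and CCAAT in 7 of 10 and 2 of 6. E2F matches went the other way, in 3 of 10 and 3 of 6. None of these differences was tested.

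Windows are printed for 4 genes that span the results, Ccnb2 (chr9:70421505-70421804, minus strand), Cdca3 (chr6:124829926-124830225, plus strand), Cenpe (chr3:135212313-135212612, plus strand) and Mcm5 (chr8:75109259-75109558, plus strand): Ccnb2 and Cdca3 as mitotic genes that fell, Cenpe as the mitotic gene that rose, and Mcm5 as a replication gene that fell. Capitals mark the CHR, CCAAT and E2F matches, and each window runs 5′ to 3′ along the gene.
Ccnb2: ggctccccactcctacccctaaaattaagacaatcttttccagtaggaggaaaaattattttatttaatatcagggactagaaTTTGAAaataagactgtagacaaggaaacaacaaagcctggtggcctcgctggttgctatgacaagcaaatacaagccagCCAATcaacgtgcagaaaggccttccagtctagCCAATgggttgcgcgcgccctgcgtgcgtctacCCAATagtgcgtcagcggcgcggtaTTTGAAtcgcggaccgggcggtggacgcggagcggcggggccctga
Cdca3: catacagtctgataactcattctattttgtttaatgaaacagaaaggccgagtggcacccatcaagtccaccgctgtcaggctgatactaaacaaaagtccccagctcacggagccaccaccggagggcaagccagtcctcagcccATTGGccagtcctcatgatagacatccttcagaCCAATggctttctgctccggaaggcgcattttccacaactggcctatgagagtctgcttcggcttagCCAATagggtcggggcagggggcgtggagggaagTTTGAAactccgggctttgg
Cenpe: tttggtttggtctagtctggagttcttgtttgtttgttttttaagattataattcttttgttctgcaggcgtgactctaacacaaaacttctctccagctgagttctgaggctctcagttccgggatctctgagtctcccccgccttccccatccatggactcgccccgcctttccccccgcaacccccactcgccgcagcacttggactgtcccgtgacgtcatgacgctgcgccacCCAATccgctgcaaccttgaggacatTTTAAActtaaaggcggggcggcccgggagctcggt
Mcm5: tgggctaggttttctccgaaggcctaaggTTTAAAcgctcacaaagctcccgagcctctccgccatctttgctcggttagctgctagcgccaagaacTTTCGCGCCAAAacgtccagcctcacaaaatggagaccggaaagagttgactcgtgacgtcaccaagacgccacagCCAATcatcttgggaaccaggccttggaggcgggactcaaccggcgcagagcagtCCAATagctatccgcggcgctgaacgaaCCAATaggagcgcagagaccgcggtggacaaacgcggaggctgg
Ccnb2 holds CCAAT with first bases at −87, −54 and −21 from the start site and TTTGAA at −167 and 5. Cdca3 holds CCAAT at −71 and −4, its reverse complement at −104, and TTTGAA at 31. Cenpe holds a single CCAAT at −12 and a CHR, here TTTAAA, at 15. In Mcm5 overlapping E2F matches begin at −153 and −149, with CCAAT at −77, −22 and 7 and TTTAAA at −221. A match is a description of the sequence and not evidence of binding, which was not measured.

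Genes of the same pathways outside the 52 were also counted. Of 54 further mitotic genes, 35 fell and 4 rose (median log2 fold change −0.34). These were 64.8% and 7.41%, against 18.7% and 19.6% of all genes. With the GC and length offsets 43 of the 54 were called lower and 1 higher, beside 3698 and 3008 of all 18514 genes tested. Racgap1, a regulator of cytokinesis, fell to 52.7 ± 0.909 CPM in knockout cultures against 80.1 ± 3.69 CPM in control cultures, and Nek2, a centrosomal kinase, to 27.6 ± 1.16 CPM against 43.3 ± 1.11 CPM (SD, n = 3). Lmnb1, lamin B1, fell to 57.2 ± 0.700 CPM against 80.7 ± 0.910 CPM, and the kinase gene Pbk to 45.4 ± 4.15 CPM against 67.9 ± 3.85 CPM. Adjusted p-values of these 4 ran from 8.0e-08 to 2.3e-06 (edgeR). The 4 that rose were the condensin genes Smc2 and Smc4, the kinesin gene Kif20b and the securin gene Pttg1, with log2 fold changes of 0.25, 0.24, 0.26 and 0.44. They are named here because they were the exceptions, after their values were seen. With the GC and length offsets the same genes stood at −0.09, −0.07, −0.08 and 0.35.

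Of 47 further replication genes, 13 fell and 4 rose (median −0.17), so 27.7% were called lower, against 18.7% of all genes. With the GC and length offsets 21 of the 47 were called lower and 2 higher, beside 3698 and 3008 of all 18514 genes tested. Rpa1, which coats single-stranded DNA, fell to 138 ± 2.16 CPM in knockout cultures against 196 ± 6.53 CPM in control cultures (log2 fold change −0.51, adjusted p = 7.7e-08, edgeR). Gmnn, the licensing inhibitor geminin, fell to 8.59 ± 0.657 CPM against 13.6 ± 1.503 CPM, and Lig1, the ligase of Okazaki fragments, to 35.2 ± 1.07 CPM against 47.7 ± 1.603 CPM (adjusted p = 1.1e-04 for Gmnn and 1.4e-05 for Lig1, edgeR). Rfc1, the large subunit of the clamp loader, rose to 59.8 ± 0.811 CPM against 44.6 ± 1.00 CPM (0.42, adjusted p = 6.8e-06, edgeR).

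Among 29 CDK, RB and E2F regulators, 7 fell (24.1%) and 5 rose (17.2%), near the 18.7% and 19.6% of all genes. With the GC and length offsets 12 were called lower and 3 higher, where 3698 of the 18514 genes tested were lower and 3008 higher. The nearness to the shares of all genes was thus read without the offsets. Pkmyt1, an inhibitory kinase of CDK1, fell to 7.45 ± 0.150 CPM in knockout cultures against 11.8 ± 0.439 CPM in control cultures, and Fzr1, an activator of the anaphase-promoting complex, to 58.7 ± 5.99 CPM against 78.9 ± 2.93 CPM. The E2F repressor genes E2f7 and E2f8 fell to 7.49 ± 0.667 and 8.12 ± 1.24 CPM in knockout cultures, against 11.3 ± 1.504 and 12.4 ± 0.980 CPM in control cultures. With the offsets Pkmyt1 and Fzr1 stood at −0.35 and −0.19 on the log2 scale, against −0.66 and −0.43 without them. Among 22 CDK inhibitors and p53 targets, 6 fell (27.3%) and 5 rose (22.7%), again near the shares of all genes, and with the offsets 4 were called lower and 4 higher. The CDK4 and CDK6 inhibitor gene Cdkn2c fell to 20.4 ± 2.72 CPM in knockout cultures against 35.7 ± 1.36 CPM in control cultures. Btg2, an antiproliferative gene and a p53 target, fell to 69.3 ± 1.26 CPM against 91.9 ± 1.98 CPM. The p53 targets Plk2 and Ccng1 rose to 453 ± 10.9 and 590.3 ± 22.4 CPM in knockout cultures, against 306 ± 4.03 and 439 ± 10.2 CPM in control cultures. With the offsets the log2 fold change of Ccng1 was 0.14, against 0.43 without them, and that of Plk2 was 0.54, against 0.57. Without the offsets, adjusted p-values of these 8 genes were at most 7.3e-04 (edgeR). Other p53 targets of the list lay on both sides of zero. Without the offsets Trp53inp1 and Eda2r were at 0.445 and 0.415, and Bax and Bbc3 at −0.256 and −0.18.

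Among 23 genes of the replication checkpoint and homologous recombination, 4 fell (17.4%) and 2 rose (8.70%), no larger shares than the 18.7% and 19.6% of all genes. With the GC and length offsets 7 of the 23 were called lower and 3 higher, beside 3698 and 3008 of all 18514 genes tested. Xrcc2, a gene of homologous recombination, fell to 6.23 ± 0.179 CPM in knockout cultures against 9.59 ± 0.980 CPM in control cultures (adjusted p = 3.9e-04, edgeR). The checkpoint kinase genes Atm and Atr rose. Atm was at 74.2, 78.1 and 75.3 CPM in the knockout libraries against 19.7, 21.1 and 27.4 CPM in the control libraries, a fold of 3.32 (log2 fold change 1.73, SE 0.10, adjusted p = 7.8e-09, edgeR). Atr was at 35.5 ± 2.58 CPM in knockout and 23.9 ± 1.92 CPM in control cultures (0.57, adjusted p = 1.2e-05, edgeR). With the GC and length offsets the log2 fold changes were 1.40 for Atm (adjusted p = 1.3e-11) and 0.20 for Atr (adjusted p = 0.014). Atm is long and poor in GC, with a transcript of 9787 bases and 43.0% GC. Atm (chr9:53439149-53536740) and Atr (chr9:95857597-95951781) lie on the same chromosome as Neo1 (chr9:58874687-59036441). Of the 52 genes, Kif23 (chr9:61915905-61946774) and Ccnb2 (chr9:70407692-70421547), which fell, lie there too. So do Anln (chr9:22332012-22389188), which fell, and Ttk (chr9:83834689-83872389), which was not called. Kif23 lies nearer to Neo1 than Atm or Atr does. Whether position on the chromosome of the targeted gene has a part in any of these values was not tested.

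**Figure D4:**
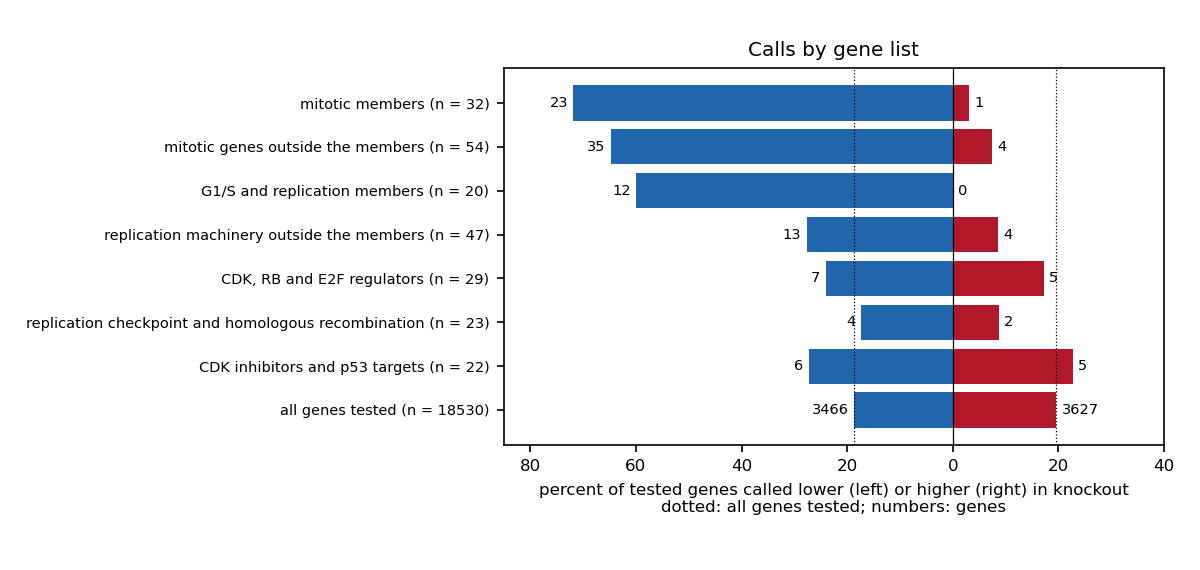
Percent of tested genes called lower (left, blue) or higher (right, red) in knockout cultures for the chosen genes, the 5 further lists and all 18530 genes tested, with the number of genes at each bar and dotted lines at the shares of all genes. The mitotic lists reach 71.9% and 64.8% lower, against 18.7% of all genes.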

How the data were processed

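RNA of 6 primary astrocyte cultures, 3 Neo1 knockout and 3 control, was extracted with Trizol and made into poly(A)-selected libraries, per the labels' protocols. The authors deposited raw read counts per gene on GRCm38 (mm10), made with HISAT2 2.2.1 and featureCounts 2.0.6, per the submitters' processing notes; the sources used here give neither the strand setting nor how reads matching more than 1 place were treated. Total counts were 60819277 to 106081115 per library, so low genes carry the most counting error and the deeper libraries the least. All 6 columns were used.

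Genes were kept by filterByExpr in edgeR 4.0.16 (minimum count 10, minimum total 15), which left 18530 of 54532 genes and 99.96% of counts. They were fitted with TMM factors and the robust quasi-likelihood test (R 4.3.3), knockout over control, and p-values were adjusted by Benjamini-Hochberg across the whole tested table, with calls at 0.05. Levels are CPM on TMM-adjusted library sizes. DESeq2 1.42.0, limma-voom (limma 3.58.1), other scalings and filters, a replicate block, a stricter threshold and leaving out each library were alternatives, and offsets for transcript GC content and length were added after the data were seen. The fits were tested on simulated data.

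The genes, role groups, lists and tests were chosen with earlier results of these data known. Full values are given for 10 genes chosen by name and for the 2 genes with the smallest p in each role group, and from each further list for up to 4 called genes with the smallest p. Gene positions, transcripts and exon overlaps come from GENCODE vM21 on GRCm38, and promoter windows from RefSeq on GRCm38.p6. The reference transcript of a gene was the longest one marked as principal there, or the longest of all where none was marked. Lengths, GC contents, levels per kilobase and the fit with offsets rest on that choice, also for Mad2l1.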

Additional observations from a re-analysis of the deposited data

How the results depend on the processing

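The medians of both gene sets kept their sign and size under every alternative run (−0.252 to −0.177 for the G1/S and replication genes and −0.383 to −0.301 for the mitotic genes, with the lowest values under total-count scaling). The counts of genes called lower stayed within 1.5 times, at 8 to 13 of 20 and 18 to 29 of 32. The count of G1/S and replication genes called higher was 0, and 1 under DESeq2, limma-voom, no filter on low counts, a filter of 1 CPM and the GC and length offsets, and 0 to 1 with each library left out. The count of mitotic genes called higher was 1, and 2 with no filter, where Mki67 was added, and 1 to 2 with each library left out. The count of further cell cycle genes called higher was 20, and 13 under total-count scaling, 13 under the GC and length offsets, 12 at a threshold of 0.01, and 12 to 18 with each library left out, lowest without control replicate 2. Under the offsets 6 of the 52 genes changed sign, all of them not called without the offsets: Mki67 (−0.052), Ccne2 (−0.024), Ttk (−0.125), Cenpf (−0.282), Hmmr (−0.219) and Cdt1 (0.179), of which Cenpf and Hmmr were then called lower. The offsets were fitted to the length and GC trend itself, and the cause of the other changes was not tested.

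Libraries that share a replicate number hardly deviated together (correlations of 0.0151, 0.0194 and −0.00821). Pairs with different numbers ran from −0.0219 to 0.0126. Knockout replicates 1 and 2 correlated best with the control of the same number, and knockout replicate 3 with control replicate 1. With the replicate block, 1 G1/S and replication gene (Ccne2) and 2 mitotic genes (Cenpe and Mki67) were called higher, and 10 of the 12 and 23 of the 23 genes called lower kept their call.

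Every call of the 52 genes that leaving out 1 library ended had a log2 fold change between −0.24 (Birc5) and −0.15 (Mcm7).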
